A study of Mus musculus with 4 samples.

Results

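Toll-like receptors are the germline-encoded sensors with which macrophages, dendritic cells and B cells recognise microbial lipids, proteins and nucleic acids. Some sit at the cell surface, where Tlr2 pairs with Tlr1 or Tlr6 to bind lipoproteins, Tlr4 binds lipopolysaccharide and Tlr5 binds flagellin. Others read nucleic acids in endosomes, Tlr3 double-stranded RNA, Tlr7 and Tlr8 single-stranded RNA and Tlr9 unmethylated CpG DNA. All of them except Tlr3 signal through the adaptor Myd88, and in the NOD mouse, which develops autoimmune diabetes spontaneously, this pathway has been studied as a link between gut microbes and islet autoimmunity.

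The 10 genes described here are Tlr1 to Tlr9 and Myd88. They were chosen by name, with earlier results of these data known, and were matched through the transcript that each array probe is annotated to. Probes were found for 9 of the 10, and no probe was matched to Tlr5, which was therefore not analysed here. The 9 genes were represented by 10 probes, since Tlr3 had a pair of them, among 32678 genes and unnamed transcripts on the array.

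The arrays compared the 2 lymph nodes that drain the pancreas, the gastric (left pancreatic) node and the pancreatico-duodenal (right pancreatic) node. Both came from each of 4 female NOD mice aged 12 weeks, with no treatment, transgene or deletion in the labels. Each mouse had 1 two-colour array, with whole-node RNA of the gastric side labelled red (Cy5) and that of the pancreatico-duodenal side green (Cy3). Log2 ratios are always given as gastric divided by pancreatico-duodenal, and a value below 0 is a lower reading in the gastric node. The dyes were never exchanged, so an effect of the dye and one of the node cannot be told apart for any gene.

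The 4 arrays lay on 1 slide, and no spot was saturated. Between 67.6% and 71.8% of spots were well above background in the gastric channel and between 60.2% and 63.1% in the other. All 9 measured B cell markers and all 10 T cell markers were well above background in both channels on every array. Exocrine pancreas genes had a list median of -4.75 in mouse 3, against -0.27 to 0.75 in the other mice. Across the 21320 features kept for testing, limma called 3.09% as higher and 4.45% as lower on the gastric side (adjusted p under 0.05), or 7.54% in all. When the arrays were only centred on their median in place of the intensity-dependent loess curve, the median of all features moved from 0.03 to 0.32 and the split of calls from 659 higher and 949 lower to 12821 higher and 2066 lower.

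No Toll-like receptor gene and not Myd88 was called different between the nodes. Of the 8 genes bright enough to test, 7 receptors and Myd88, none was called higher and none lower in limma, against 7.54% of all features, and 1, Tlr2, had an unadjusted p under 0.05, against 30.7% of all features. The mean log2 ratio was below 0 for 6 and above 0 for 2 of them, and the median of the 8 means was -0.019, beside 0.03 over all features. In the main fit, with a background offset of 50, the 95% confidence intervals of the 8 differences, moderated by limma, nowhere reached beyond 0.53. On the linear scale that is 1.44-fold. The furthest bound was that of Tlr3, a dim gene with a gastric signal of 138 to 246 over a background of 39 to 48.5. The mean of Tlr3 was -0.21 here, -0.26 with an offset of 16 and -0.29 with the scanner software's processed ratio. The bound does not cover those settings. With median centring in place of loess 6 of the 8 were called higher, but 5 of the 8 lay above and 3 below the median of all features there. In bulk tissue a lower reading can come from fewer cells of a type or from less RNA per cell, and these cannot be told apart.

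**Figure D1:**
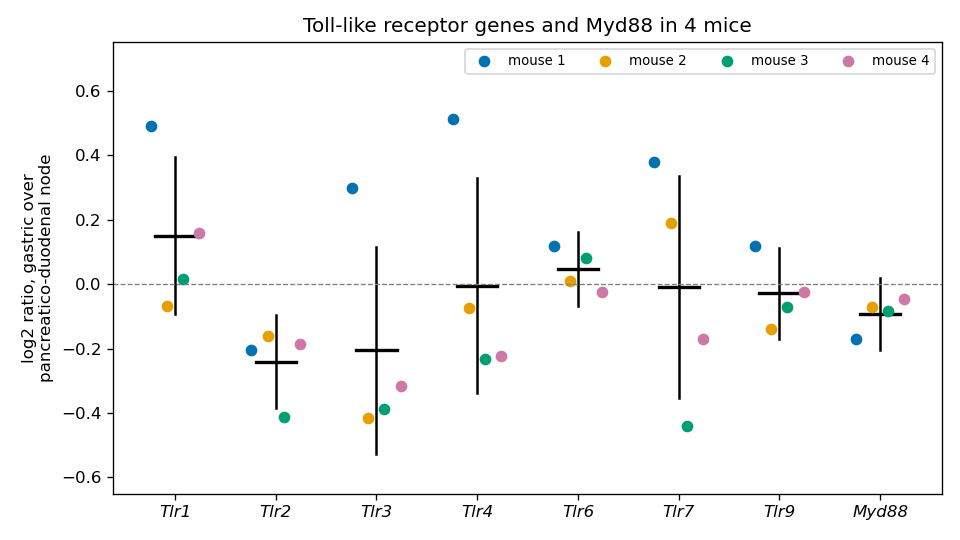
Log2 ratio of gastric over pancreatico-duodenal node (y axis) for the 8 testable genes (x axis). Points are the 4 mice, thick bars the mean and thin lines the 95% confidence interval from limma; only Tlr2 and Myd88 lie below 0 in all 4 mice, and for Tlr1, Tlr3, Tlr4, Tlr6, Tlr7 and Tlr9 mouse 1 has the highest value.

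Tlr2, the shared partner of the lipoprotein receptors, was the member nearest to a call. Its log2 ratio was -0.20 in mouse 1, -0.16 in mouse 2, -0.41 in mouse 3 and -0.19 in mouse 4. All 4 mice thus read lower in the gastric node, and mouse 3 stood below the others. The mean was -0.24 ± 0.12 (SD, n = 4), with a 95% interval from -0.39 to -0.096 and a limma adjusted p of 0.0619, just short of the threshold, and under median centring it turned to 0.25, which lay 0.075 below the median of all features there. Without mouse 3 the mean was -0.18 (limma adjusted p = 0.126). As a linear ratio the gastric node held 0.846 of the pancreatico-duodenal reading, with an interval from 0.766 to 0.935, and 8.06% of all features had a lower mean.

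The level of Tlr2 was also read in each node on its own. On a log2 intensity scale equalised between the arrays, the gastric readings were 9.86, 9.85, 9.63 and 9.75 in mice 1 to 4 and the pancreatico-duodenal ones 10.07, 10.01, 10.04 and 9.94. Tlr2 was the only one of the 8 genes whose levels in the 2 nodes did not overlap. The 4 gastric levels lay below all 4 pancreatico-duodenal ones for 7.38% of all features and above them for 8.88%, so that levels did not overlap for 16.3%, and 1 of 8 is close to that background.

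The partners of Tlr2 were not below 0 in every mouse. Tlr1, which joins Tlr2 to bind triacylated lipoproteins, read 0.49 in mouse 1, -0.067 in mouse 2, 0.017 in mouse 3 and 0.16 in mouse 4. Mouse 1 was far above the others, and the mean of 0.15 ± 0.25 (SD, n = 4) had an interval from -0.093 to 0.39 (limma adjusted p = 0.343). Without mouse 1 the mean was 0.037.

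Tlr6, the partner for diacylated lipoproteins and the neighbour of Tlr1 in the genome, read 0.12, 0.011, 0.080 and -0.025 in mice 1 to 4. These values clustered around 0, with a mean of 0.046 ± 0.065 (SD, n = 4) and a narrow interval from -0.070 to 0.16 (limma adjusted p = 0.530). Within an array, Tlr2 was below Tlr1 in all 4 mice, by a mean difference of -0.39 ± 0.25, and below Tlr6 in all 4, by -0.29 ± 0.16 (SD, n = 4). These differences were looked at after the values were seen, and with 4 mice an exact sign-flip test could not go below a two-sided p of 0.125, so they are given as a description.

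Tlr4, the lipopolysaccharide receptor, had a mean difference close to 0 and a wide spread between mice. It read 0.51 in mouse 1, -0.074 in mouse 2, -0.23 in mouse 3 and -0.22 in mouse 4. Mouse 1 was thus higher in the gastric node and the other mice lower, and the mean of -0.0049 ± 0.35 (SD, n = 4) had an interval from -0.34 to 0.33 (limma adjusted p = 0.984). Between-mouse SDs were smaller than that of Tlr4 for 92.9% of all features. In mouse 1 the pancreatico-duodenal level was 6.88 on the log2 intensity scale, against 7.41, 7.40 and 7.50 in the other mice, while the gastric levels ran only from 7.16 to 7.39.

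The probes of Tlr2, Tlr4 and Myd88 were printed 10 times on every array, which measures the error between spots of an array. After spots flagged as outliers were left out, Tlr4 had 8 or 9 spots per array, and their SD within an array ran from 0.052 to 0.081. The mean over spots had a standard error of at most 0.029. Labelling, hybridisation and array error are not in that figure, since each mouse had its own array, so it does not show how far the mice themselves differ. In mouse 1 all 8 spots of Tlr4 were above 0, between 0.40 and 0.63, and in mice 3 and 4 all 8 and all 9 were below 0.

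For Tlr2 the SD between spots was 0.018 to 0.042, and all 28 spots that were not flagged, over the 4 arrays, were below 0. In mouse 3 the highest of the 7 spots was -0.36, below the lowest spot of each other mouse. Spots on an array share the RNA of the same nodes, so they describe spot error within an array and not the error of the comparison.

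**Figure D2:**
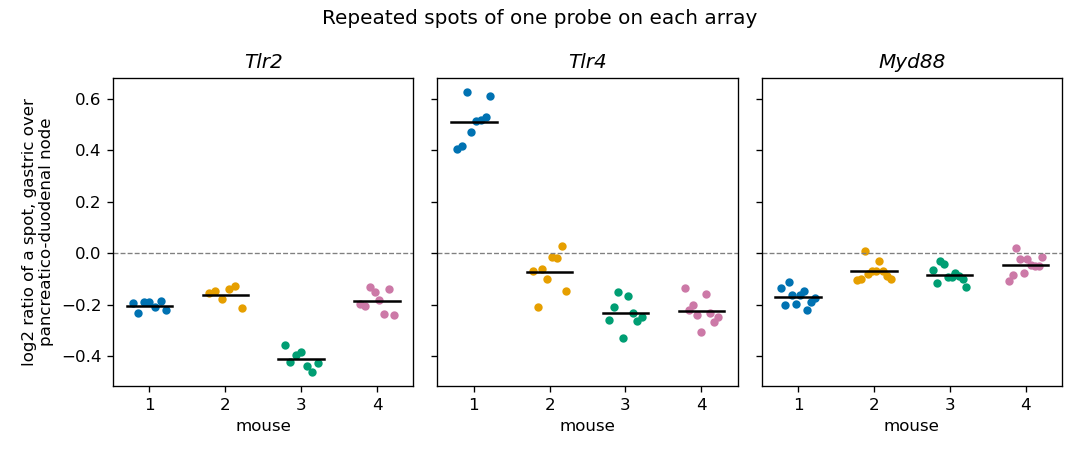
Log2 ratio of each spot (y axis) of the Tlr2, Tlr4 and Myd88 probes in mice 1 to 4 (x axis), with bars at the mean over spots. The spots of an array lie close together, and the 8 spots of Tlr4 in mouse 1, from 0.40 to 0.63, are clear of those in the other mice.

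The endosomal receptors gave no call over the 4 mice either. Tlr3, which senses double-stranded RNA and signals through the adaptor Ticam1 in place of Myd88, read 0.30 in mouse 1, -0.42 in mouse 2, -0.39 in mouse 3 and -0.32 in mouse 4. Mouse 1 was above 0 and the other 3 were below it by similar amounts, which gave a mean of -0.21 ± 0.34 (SD, n = 4) with an interval from -0.53 to 0.11 (limma adjusted p = 0.327). Its second probe had the same sign in each mouse at 0.26, -0.20, -0.21 and -0.083, with a mean of -0.060 ± 0.22.

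Without mouse 1, Tlr3 was the only one of the 8 to be called, lower in the gastric node at -0.37 with an interval from -0.50 to -0.25 (limma adjusted p = 0.0197). Leaving out mouse 1 removes the only mouse above 0 for Tlr3. The second probe, not used in the fit, read -0.20, -0.21 and -0.083 in mice 2 to 4. In that fit 6.21% of all features were called lower and 3.96% higher, so 1 of 8 genes is again near the background. Tlr4 was at -0.18 there (limma adjusted p = 0.0956) and Tlr2 at -0.25 (limma adjusted p = 0.0677). Neither passed.

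Tlr7, the single-stranded RNA receptor of plasmacytoid dendritic cells and B cells, read 0.38, 0.19, -0.44 and -0.17 in mice 1 to 4. The mice split 2 against 2, the mean was -0.010 ± 0.37 (SD, n = 4) and the interval ran from -0.35 to 0.33 (limma adjusted p = 0.969). Its gastric level varied more between mice than its pancreatico-duodenal one, over a range of 0.81 against 0.30 on the log2 scale, with the lowest gastric value of 8.40 in mouse 3.

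Tlr8, its neighbour in the genome, was well above background in neither channel of any array. The mean signal of its spot was 55.1 to 59.3 in the gastric channel, over a local background of 35 to 44.5, and 45.3 to 50.3 in the other, over 16 to 21. No ratio is given for it.

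Tlr9, the CpG DNA receptor that B cells carry in quantity, read 0.12, -0.14, -0.072 and -0.024 in mice 1 to 4. These values straddled 0 within a small range, and the mean of -0.029 ± 0.11 (SD, n = 4) had an interval from -0.17 to 0.11 (limma adjusted p = 0.751). The list of B cell markers had a median log2 ratio of 0.071 over the 4 mice, with none of 9 called.

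Myd88, the adaptor that all the receptors but Tlr3 use, was below 0 in every mouse, at -0.17, -0.071, -0.084 and -0.046. The size was small, with a mean of -0.093 ± 0.054 (SD, n = 4), an interval from -0.20 to 0.018 and a limma adjusted p of 0.220. Of its 40 spots over the 4 arrays 38 were below 0, and the spots of an array differed by an SD of 0.031 to 0.038. With median centring the mean turned to 0.48, which was 0.15 above the median of all features there. The direction of Myd88 thus differed between loess and median centring.

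**Figure D3:**
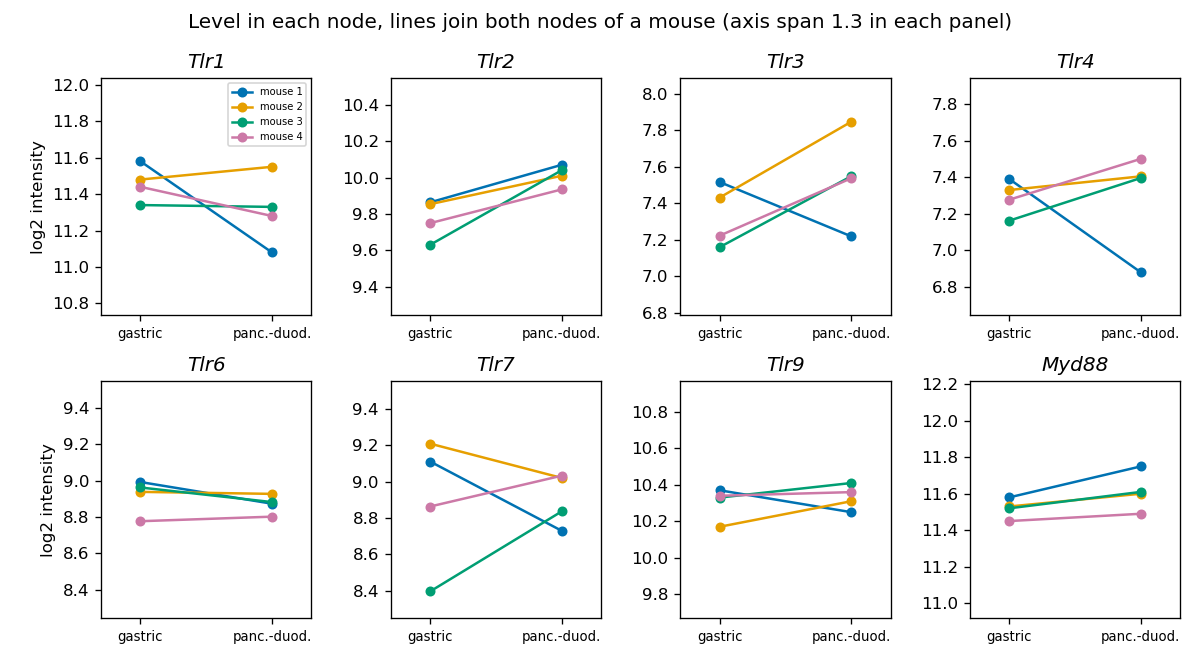
Log2 intensity (y axis, the same span in every panel) of each testable gene in the gastric and the pancreatico-duodenal node (x axis); each line joins the nodes of 1 mouse. For Tlr2 all 4 gastric values lie below all 4 pancreatico-duodenal values, while the values of both nodes overlap for the other 7 genes; levels of different genes are not comparable.

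The receptors differed in how far the mice disagreed. Tlr7, Tlr4, Tlr3 and Tlr1 had SDs between mice of 0.37, 0.35, 0.34 and 0.25, larger than those of 93.5%, 92.9%, 92.2% and 85.3% of all features. Myd88 and Tlr6 lay at the other end, with SDs of 0.054 and 0.065 that exceeded only 11.5% and 18.0% of features. Tlr9 and Tlr2, with 0.11 and 0.12, were in the middle.

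Much of this disagreement lay between mouse 1 and the others. In mouse 1 the 8 genes had a median ratio of 0.21, while it was -0.073, -0.16 and -0.11 for mice 2 to 4, with 6 of 8 above 0 in mouse 1 and 2, 2 and 1 of 8 above 0 in the others. Mouse 1 had the highest ratio for 6 of the 8 genes, as it did for 38.2% of all features, and Tlr2 and Myd88 were the exceptions. The median of the surface receptors Tlr1, Tlr2, Tlr4 and Tlr6 was 0.31, -0.071, -0.11 and -0.10 in mice 1 to 4. That of the endosomal receptors Tlr3, Tlr7 and Tlr9 was 0.30, -0.14, -0.39 and -0.17. It was the lower of both medians in mice 2 to 4, while in mouse 1 they were almost equal, at 0.298 against 0.306. The difference was not tested.

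Markers of fat were highest in mouse 1 as well, and this was not particular to fat. The medians of the macrophage, B cell, neutrophil, endothelial and fibroblastic stroma lists were also highest there. Those of the T cell, conventional and plasmacytoid dendritic cell and exocrine pancreas lists were not. The 4 measured adipocyte genes, all well above background in both channels, had a median ratio of 2.08 in mouse 1, -2.06 in mouse 2, -0.021 in mouse 3 and -1.78 in mouse 4. Their median level on the log2 scale was 8.53 to 12.5 in gastric and 8.05 to 12.7 in pancreatico-duodenal nodes. The part of any of these lists in the ratios of Tlr1, Tlr3 and Tlr4 was not tested. Tlr7 was lowest in mouse 3, the mouse with the exocrine pancreas median of -4.75, whose part in it was not tested. Without that mouse its mean was 0.13 (limma adjusted p = 0.483).

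Some markers of the cells that carry these receptors were called. Over all marker lists 15 of 81 genes were lower and 3 higher, which is 18.5% and 3.7%, beside 4.45% and 3.09% of all features. The lists were chosen with earlier results of these data known, so these shares are a description and not independent evidence. Without mouse 2, mouse 3 or mouse 4 none of the 81 was called, with 0, 3 and 1 calls over all features there. Median centring called 11 lower and 35 higher, beside 2066 lower and 12821 higher of the 21320 features. In the log2 ratios that the authors deposited 11 were lower and 1 was higher. Fewer of all features were called there too, 584 lower and 489 higher, against 949 and 659 in the main fit. Of 14 measured macrophage and monocyte genes 6 were lower and none higher in the gastric node, with a list median of -0.76. The largest were Adgre1 (-1.36 ± 0.71), Cd163 (-1.26 ± 0.30) and C1qb (-1.04 ± 0.26; SD, n = 4). With median centring 4 of the 14 were lower and 4 higher, and their median ratio was -0.435 relative to that of all features there. Their median level was 10.3 to 11 in gastric and 11.5 to 11.8 in pancreatico-duodenal nodes, and all 14 were well above background on every array. Of 8 conventional dendritic cell genes 5 were lower and none higher, with a list median of -0.45, led by Fscn1, Flt3 and Itgae at -0.65, -0.64 and -0.63. With median centring 1 of the 8 was lower and 2 were higher, at a median of -0.42 relative to that of all features there. In the authors' ratios 2 were lower.

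The medians of other marker lists were closer to 0 or varied between mice. None of 9 plasmacytoid dendritic cell genes was called, at a median of -0.063. In T cells 2 of 10 were higher, Cd28 at 0.33 and Cd3g at 0.32, with a median of 0.19. All 10 were higher with median centring, at a median of 0.469 relative to that of all features there. None was called in the authors' ratios. Of 5 neutrophil genes 1, Cxcr2 at 0.54, was higher, while the list median was -1.92 in mouse 2 and -0.38 to 0.084 in the others. Endothelial genes had 2 of 8 lower, Tie1 at -0.58 and Flt4 at -0.39, and fibroblastic stroma 2 of 6, Col3a1 at -0.84 and Col1a1 at -0.61. With median centring none of the 6 stroma genes was called lower and 3 were higher, at a median of -0.048 relative to that of all features.

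The macrophage median was -0.25, -0.60, -1.14 and -0.71 in mice 1 to 4, and mouse 3, where it was lowest, also had the lowest Tlr2 and Tlr7. The part of cell composition in the values of Tlr2 was not tested. Csf1r, the growth factor receptor of macrophages, was lower at -0.43 ± 0.17, and Tlr2 was above it within the array in 3 of 4 mice, by a mean of 0.19 ± 0.19 (SD, n = 4). That difference was looked at after the values were seen.

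**Figure D4:**
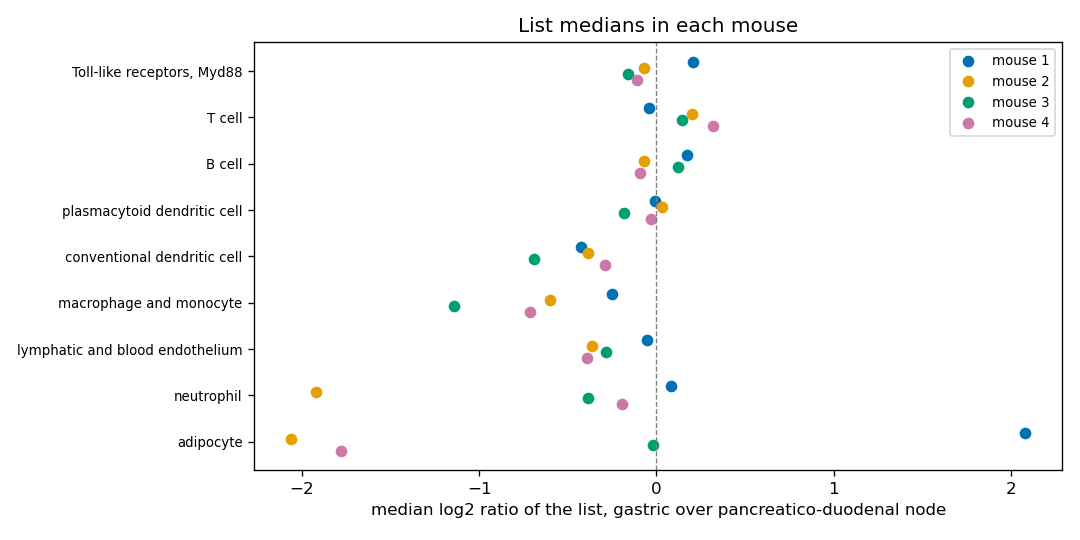
Median log2 ratio of gastric over pancreatico-duodenal node (x axis) for the 8 testable genes and for marker lists of cell types (y axis), with 1 point per mouse. The Toll-like receptor medians lie between -0.16 and 0.21, the macrophage medians between -1.14 and -0.25, and the adipocyte medians spread from -2.06 to 2.08; the exocrine pancreas and fibroblastic stroma lists are not drawn.

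The rest of the pathway was measured through lists of genes with known roles around the receptors. Of 72 listed genes 66 were matched to a probe and 59 were bright enough to test. Of the 59, 3 were lower and 1 was higher in the gastric node, which is 5.08% and 1.69%, beside 4.45% and 3.09% of all features, and their median was -0.025. The 3 receptors Tlr11, Tlr12 and Tlr13 were not matched to a probe.

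Among 9 co-receptors and chaperones, 2 were lower and none higher, and the list median was -0.11. Cd14, which hands lipopolysaccharide to Tlr4 and also serves Tlr2, read -0.43, -0.30, -0.53 and -0.26 in mice 1 to 4. It was 1.3-fold lower in the gastric node (-0.38 ± 0.12, SD, n = 4; limma adjusted p = 0.0321), but turned to 0.093 under median centring, 0.23 below the median of all features there. Lbp, the lipopolysaccharide-binding protein that loads Cd14, read -0.30, -0.65, -0.34 and -0.38 and was 1.34-fold lower (-0.42 ± 0.16; limma adjusted p = 0.0352). Median centring put Lbp at -0.18, where it did not pass (limma adjusted p = 0.0595). Relative to the median of all features there it was at -0.502.

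Ly96, which encodes the MD-2 subunit that Tlr4 needs to bind its ligand, was at 0.026 ± 0.18 (limma adjusted p = 0.839). It read 0.25, 0.057, -0.19 and -0.011 in mice 1 to 4, highest in mouse 1, as Tlr4 was. Ly96 was lowest in mouse 3, whereas Tlr4 was about equally low in mice 3 and 4, at -0.23 and -0.22. Within the array Tlr4 stood above Cd14 in all 4 mice, by 0.94, 0.23, 0.29 and 0.038. Unc93b1, the chaperone that carries the endosomal receptors out of the endoplasmic reticulum, was at -0.11 ± 0.081 and did not pass (limma adjusted p = 0.204). Ly96 and Unc93b1 and the difference between Tlr4 and Cd14 were singled out after their values were seen.

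None of 4 measured adaptors with the same TIR signalling domain was called, and their median was -0.034. Ticam1, the adaptor of Tlr3, was at -0.054 ± 0.13 (limma adjusted p = 0.587) and Tirap, which brings Myd88 to Tlr2 and Tlr4, at 0.031 ± 0.083 (limma adjusted p = 0.695; SD, n = 4). Ticam2 was too dim to test. None of 15 kinases and ubiquitin ligases below the adaptors was called, with a median of 0.039. Irak1, a kinase that Myd88 recruits, was at 0.11 ± 0.079, and the ubiquitin ligase gene Peli1 at 0.24 ± 0.37, again highest in mouse 1 at 0.71. None of 10 inhibitors was called, with a median of 0.010, Nfkbia at 0.037 ± 0.10 and Tnip1 at 0.019 ± 0.036.

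Of 9 transcription factors 1 was lower and none higher, at a list median of -0.11. This was Irf5, which acts downstream of Myd88 in macrophages and B cells. It read -0.29, -0.48, -0.26 and -0.30 in mice 1 to 4 and was 1.26-fold lower (-0.33 ± 0.099, SD, n = 4; limma adjusted p = 0.0330), but turned to 0.23 with median centring, 0.094 below the median of all features there.

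Among 12 target genes of NF-kB and interferon signalling 1 was higher and none lower, and the list median was -0.088. Il12a, which encodes the p35 subunit of interleukin 12, read 0.35, 0.19, 0.41 and 0.23 and was 1.23-fold higher (0.30 ± 0.10; limma adjusted p = 0.0413). Il12b and Cd40 were not matched, and Il6, Cxcl2, Ifnb1, Nos2 and Ptgs2 were too dim to test. Without mouse 2, mouse 3 or mouse 4 none of the 59 pathway genes was called, and of all features 0, 3 and 1 were called there, so that these 3 fits say little about the pathway itself. Without mouse 1 there were 5 calls among the 59. In the authors' deposited series values 2 of the 59 genes were called, beside 1073 of all features, against 1608 in the main fit. Cd14, Irf5 and Il12a lost the call there and with the scanner software's processed ratio.

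**Figure D5:**
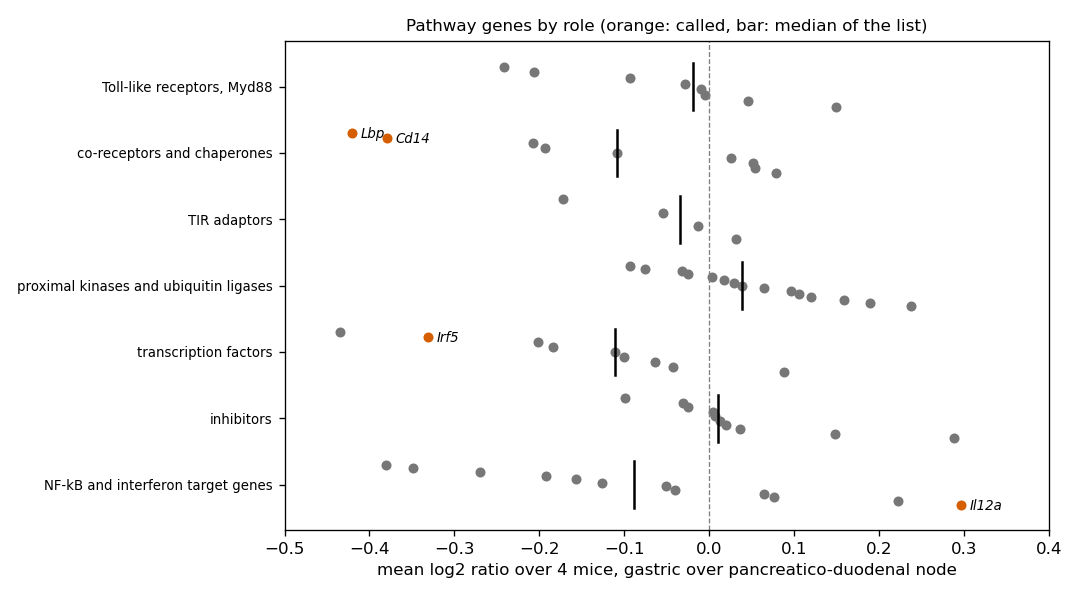
Mean log2 ratio over 4 mice, gastric over pancreatico-duodenal node (x axis), of every tested gene in each list (y axis), with a bar at the list median and called genes in orange. None of the 8 Toll-like receptor genes and Myd88 is orange; Cd14, Lbp and Irf5 are called lower and Il12a higher, and the sign of Cd14 and Irf5 turns with median centring.

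With no receptor called, the 2 genes with the largest mean differences, Tlr2 and Tlr3, were set against 13191 other named genes by the root mean square difference of their 4 ratios. Nearest to Tlr2 were Gdpd1, Denn2b and Cln8, at differences of 0.036, 0.038 and 0.040 on the log2 scale over the 4 mice. Nearest to Tlr3 were Art3, Tfpi and Pdk4, at 0.068, 0.071 and 0.078.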

How the data were processed

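RNA of both nodes was amplified, labelled with Cy5 or Cy3 and hybridised to Agilent 4x44K arrays, 1 per mouse, per the labels' protocols. The deposited scanner files hold mean and background intensity per spot and processed intensity, made with Agilent Feature Extraction 10.2.1.3, per the file headers. In a further table, the authors deposited log2 ratios of the processed red over green signals, which was checked to within 5.1e-05; its column medians were -0.15, -0.057, -0.034 and -0.027.

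The software was R 4.3.3 with limma 3.58.1 and data.table, version 1.17.8. Intensities were corrected with normexp (offset 50) and loess, control spots having weight 0 and outlier-flagged spots left out. Spots of a probe were averaged. Probes well above background in 1 channel on at least 3 of 4 arrays were kept (27603 of 41174), and the brightest per gene was used. Transcripts were named through a RefSeq gene table of GRCm38.p6, for 24844 probes; the array's annotation uses another build, so no coordinates are given. The mean ratio was tested against 0 with lmFit and eBayes, with Benjamini-Hochberg adjustment over all 21320 features at 0.05. Node levels were read after Aquantile. Background correction, loess and the fit were tested on simulated features. There 98% of log2 changes of 0.5 were recovered, at a median fitted size of 0.442, and 14 of 212 calls were false. Every simulated feature had the same noise and every array the same dye curve. That noise was smaller than the spread between mice of Tlr3, Tlr4 and Tlr7 (SDs of 0.34, 0.35 and 0.37). The share recovered therefore does not apply to these receptors. The averaging of spots, the filter, the choice of probe, the naming and Aquantile were not part of that test.

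Named pathway genes are up to 4 called per list, or the 2 brightest; marker lists name up to 3 called. Members, lists and rules were chosen with earlier results of these data known. Alternatives covered background, normalization, filter, probe, variance model, series table, each mouse and, chosen after seeing the data, flagged spots.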

Additional observations from a re-analysis of the deposited data

Results flagged for a closer look

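The highest and lowest of the 4 mice were compared with their nearest neighbour for 28 sets of values, the 8 testable genes, the 4 called pathway genes and 16 list medians, and in 2 sets a mouse stood apart by more than Dixon's 95% limit. Chance gives about 1 in 20, and 2 of 28 is near that share. Mouse 1 stood apart for Tlr3, at 0.30 while mice 2 to 4 lay between -0.42 and -0.32. Mouse 3 stood apart for Tlr2, at -0.41 while the other mice lay between -0.20 and -0.16.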

How the results depend on the processing

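The number of the 8 genes called lower was 0 to 1 over the fits without 1 mouse, the 1 being Tlr3 without mouse 1, and the number called higher was 0 in each of those; every other alternative but median centring also gave 0 and 0. Median centring called 6 of the 8 higher (Tlr1 at 0.71 and Tlr6 at 0.47 among them) together with 14887 of all features, 47 of the 59 pathway genes and a median of all features of 0.32, and it turned the means of Myd88 to 0.48, Tlr2 to 0.25, Tlr4 to 0.14, Tlr7 to 0.41, Tlr9 to 0.48, Cd14 to 0.093 and Irf5 to 0.23, while Lbp lost its call at -0.18. Counted against the median of all features, 5 of the 8 were above and 3 below it there, against 2 and 6 with loess. The scanner software's processed ratio called 1049 features and 2 pathway genes, with Tlr4 at 0.014. The authors' series table called 1073 features and 2 pathway genes, with Tlr4 at 0.020. Leaving out 1 mouse at a time gave 0 to 2167 calls over all features and 0 to 5 over pathway genes; the means ran from -0.18 to 0.071 for Tlr4, -0.14 to 0.13 for Tlr7 and -0.078 to 0.0077 for Tlr9. Over the 11 alternatives other than median centring and a left-out mouse, the adjusted p of Tlr2 ran from 0.0552 to 0.0962 and its mean from -0.27 to -0.24. The causes were not tested. The test is itself paired, since both nodes of a mouse share an array, so no further replicate block was fitted. The number of arrays limits the precision, and Tlr8 was not measurable above background.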
